A study of Mus musculus with 14 samples.

Results

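MicroRNAs (miRs) whose expression is best known from tissues other than the heart were examined in the left ventricle (LV) of mice with heart failure (HF). The set was chosen by name from miRs known for brain, sensory epithelia, other epithelia, liver, pancreas or pluripotent cells, and the rule uses no measured value. It comprised 35 miR names, and every mouse probe that carried 1 of these names, alone or with the suffix of an arm, was included. This gave 67 of the 1037 mouse probes, on an array of 2576 probes in all. A miR is a short RNA that guides the silencing complex to messenger RNAs, mainly through bases 2 to 8 of its 5′ end, the seed. Each hairpin precursor yields an arm from its 5′ side and an arm from its 3′ side, and in the older naming of the array an asterisk marks the less abundant arm. Among these miRs, miR-124, miR-9, miR-128, miR-137, miR-138 and miR-7 are enriched in neurons, and miR-219 acts in oligodendrocytes. The miR-96, miR-182 and miR-183 cluster serves sensory cells, the miR-200 family, miR-203 and miR-205 belong to epithelia, miR-122 to hepatocytes, and miR-375, miR-216 and miR-217 to the pancreas. The miR-290 to miR-295 and miR-302 to miR-367 clusters mark embryonic stem cells and the early embryo.

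All mice were male C57Bl/6 of 3 to 4 months. Sham-operated mice (n = 4) were compared with mice that reached HF within 6 to 8 weeks of transaortic constriction (TAC), at an ejection fraction near 35% against about 60% in healthy mice (HF, n = 5), and with mice that, once in HF, received estradiol at 0.03 mg/kg per day from a subcutaneous pellet for 10 days (HF+E2, n = 5). The HF+E2 mice were thus further in time from TAC than the HF mice, and the labels name no pellet without estradiol. Each mouse was measured on 1 single-channel array, so that n counts mice. RNA came from ventricle tissue without sorting of cells, so that fewer cells of a type and less RNA per cell cannot be told apart. Probes of miRs known from heart muscle, vessels and blood, among them miR-1, miR-133a, miR-208a-5p and miR-126-3p, were above the detection threshold on all 14 arrays (15 of 15 probes). For arrays, the number of mice limits the precision.

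The mature sequences that the results turn on are given first, because several of the stem cell miRs differ by few bases and share their seed. Sequences were taken from RefSeq (GRCm38.p6), which matched 59 of the 67 probes by name, and bases 2 to 8 are in capitals. The others were miR-292-3p, miR-124, miR-124*, miR-375, miR-219-3p, miR-302a, miR-122 and miR-122*. Where the deposited annotation also gave a sequence, both were equal (16 of 16). Of the 22 stem cell members with a sequence, the 8 with the letters AAGUGC near the 5′ end and the 2 others detected on every array of a group are shown.
miR-291a-3p: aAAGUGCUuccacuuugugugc
miR-294: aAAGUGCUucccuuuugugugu
miR-295: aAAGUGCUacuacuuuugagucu
miR-291b-3p: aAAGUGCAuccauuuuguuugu
miR-290-3p: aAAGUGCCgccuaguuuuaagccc
miR-302c: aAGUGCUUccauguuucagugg
miR-302b: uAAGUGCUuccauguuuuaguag
miR-302d: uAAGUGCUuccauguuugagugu
miR-290-5p: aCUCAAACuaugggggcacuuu
miR-292-5p: aCUCAAACugggggcucuuuug
The letters AAGUGC lay within the first 8 bases of 8 of the 59 members with a sequence, all of them from the stem cell clusters, and of 18 of the 1679 mature mouse miRs in RefSeq (1.07%). Of these 8 members, 5 were above the detection threshold on every array of a group, against 2 of the 14 sequenced stem cell members without these letters. Among all mouse probes 50.5% passed this rule, and a link between these letters and detection was not tested. miR-292-3p, above the threshold on all 14 arrays, had no sequence and is in neither count. The letters are not particular to stem cell miRs, since the 10 RefSeq miRs outside the set that carry them include miR-17-5p, miR-20a-5p, miR-93-5p and miR-106b-5p. miR-291a-3p, miR-294, miR-295, miR-302b and miR-302d shared the whole seed. Counted from 1 at the 5′ end, miR-291a-3p and miR-294 differed by A12C, C13U and C22U, and miR-291b-3p departed from miR-291a-3p within the seed by U8A. miR-290-5p and miR-292-5p shared another seed, CUCAAAC. The miR-290 cluster ran from miR-290-5p at chr7:3218639-3218660 to miR-295 at chr7:3220815-3220837, and miR-302c lay at chr3:127545406-127545427. In the RefSeq table, which gives gene spans and not exons or introns, miR-291a-3p, miR-291b-3p, miR-292-5p, miR-294 and miR-295 fell within the spans of Nlrp12 and of the long noncoding RNA D7Ertd143e, and the miR-302 members within those of Larp7 and the long noncoding RNA Gm51018.

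The members of the brain, epithelial and pancreatic lists with the clearest signals or a close relative are shown because near-identical relatives can share a probe's signal.
miR-128: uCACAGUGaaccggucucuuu
miR-138: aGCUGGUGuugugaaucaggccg
miR-219-5p: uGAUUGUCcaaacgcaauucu
miR-7a: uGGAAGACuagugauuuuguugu
miR-7b: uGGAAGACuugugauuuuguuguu
miR-203: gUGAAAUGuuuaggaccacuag
miR-141: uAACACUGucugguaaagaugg
miR-200a: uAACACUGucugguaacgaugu
miR-216a: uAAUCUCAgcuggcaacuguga
miR-7b and miR-7a shared their seed and differed over 23 bases by U10A alone, and miR-200a and miR-141 shared theirs and differed by C17A and U22G. The probes of such pairs may bind both miRs, so that their values are uncertain in this respect. miR-128 is encoded at chr1:128202404-128202424 within the span of R3hdm1 and at chr9:112118644-112118664 within that of Arpp21. miR-7a is encoded at chr13:58392841-58392863, within the span of Hnrnpk, and at chr7:78888295-78888317, where the table listed only the miR gene. miR-203 lay at chr12:112130927-112130948 and miR-141 at chr6:124717917-124717938, with no host gene in the table, and miR-216a at chr11:28757018-28757039, within the long noncoding RNA Gm40818.

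Of the 67 members, 11 were above the detection threshold of every array, namely miR-128, miR-203, miR-138, miR-219-5p, miR-7a, miR-302c, miR-291a-3p, miR-294, miR-292-3p, miR-291b-3p and miR-290-5p. Among all mouse probes 43.8% passed the same rule. On each array the threshold was the level that the authors derived from the negative control probes, and it lay between 5.42 and 5.73 log2 units in sham, 4.79 and 5.74 in HF, and 5.49 and 5.85 in HF+E2. A further 6 members, miR-292-5p, miR-216a, miR-295, miR-375*, miR-141 and miR-9*, were above it on every array of at least 1 group, which brought the count to 17, against 50.5% of all mouse probes. Another 15 members were above it on some arrays only, and 35 were above it on none. The 17 members comprised 5 of 13 brain members, 2 of 14 epithelial, 2 of 8 pancreatic and 8 of 24 stem cell members, and none of the 6 sensory and 2 liver members. Per array, 20 to 25 members were above the threshold in sham (median 22.5), 15 to 23 in HF (median 16) and 16 to 25 in HF+E2 (median 20). Of all mouse probes, a mean of 556.75 ± 15.6 (sham, SD), 559.8 ± 41.5 (HF) and 559.6 ± 29.7 (HF+E2) were above it. The threshold lay 0.99 ± 0.09 (sham), 1.36 ± 0.27 (HF) and 1.03 ± 0.12 (HF+E2) log2 units above the mean of the negative controls. How far the lower counts of members in HF rest on this distance was not tested.

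**Figure D1:**
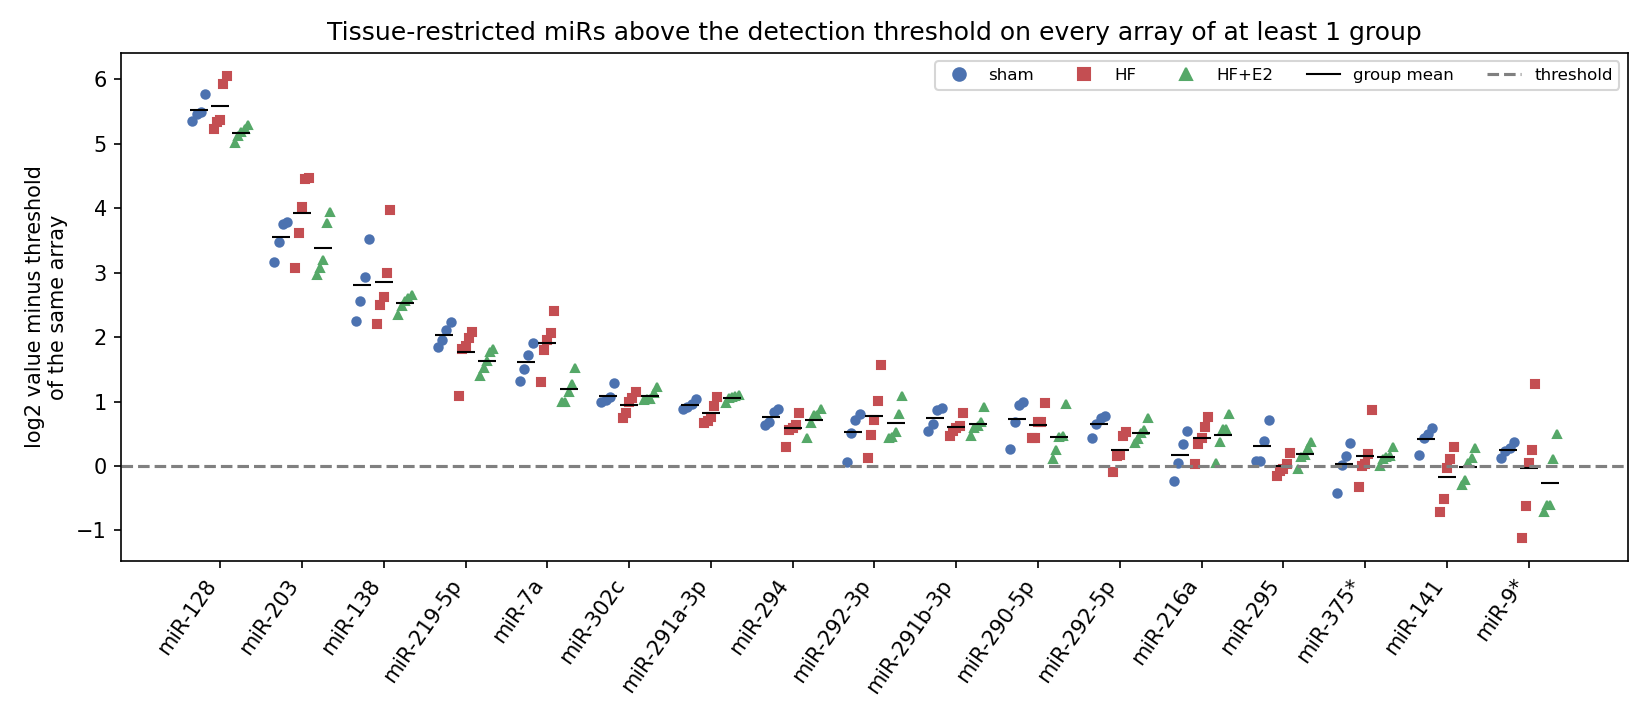
Log2 value minus the detection threshold of the same array (y axis, log2 units) for the 17 members that were above the threshold on every array of at least 1 group (x axis), with each array as a point and group means as lines. miR-128 was 5.02 to 6.05 log2 units above the threshold on all 14 arrays, whereas miR-375*, miR-141 and miR-9* lay on both sides of the dashed line at 0.

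Few of the 17 stood far above background. Only miR-302c, miR-203, miR-219-5p, miR-138, miR-128 and miR-7a stayed above the mean plus 2 SD of the negative controls on all 14 arrays, and only miR-203, miR-219-5p, miR-138 and miR-128 stayed more than 1 log2 unit above the threshold. The probes of these 6 members thus gave signal above background in the LV, but binding of other RNAs to them was not tested. The signal of miR-302c was 0.74 to 1.28 log2 units above the threshold, and a probe to human miR-302c was above it on 0 arrays. Leaving out any 1 array gave 11 or 12 members above the threshold on every array left. None of the members had a saturated spot, and 4 members had a spot at the floor of the log2 values.

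Of the members, 50 were at or near background, and they followed the negative control probes of the array. The 28 negative controls are C. elegans sequences without a mouse counterpart, and their deposited log2 mean was 4.64 ± 0.22 (sham, SD, n = 4), 3.85 ± 0.27 (HF, n = 5) and 4.62 ± 0.11 (HF+E2, n = 5). The difference between HF and sham was -0.79 (two-sided exact permutation test, p = 0.0159), that between HF+E2 and HF was 0.77 (p = 0.00794, the smallest possible), and that between HF+E2 and sham was -0.02 (p = 0.81). Before the authors' scaling of the arrays the same means were 4.31 ± 0.07, 4.30 ± 0.42 and 4.45 ± 0.36. After scaling all 5 HF arrays were below every array of the other groups, but HF 2, at 4.324, was close to sham 1, at 4.325. The mean of the 50 members was 4.84 ± 0.25 (sham), 4.25 ± 0.25 (HF) and 4.91 ± 0.14 (HF+E2). They thus stood 0.20 ± 0.10, 0.40 ± 0.11 and 0.28 ± 0.05 log2 units above the negative controls.

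**Figure D2:**
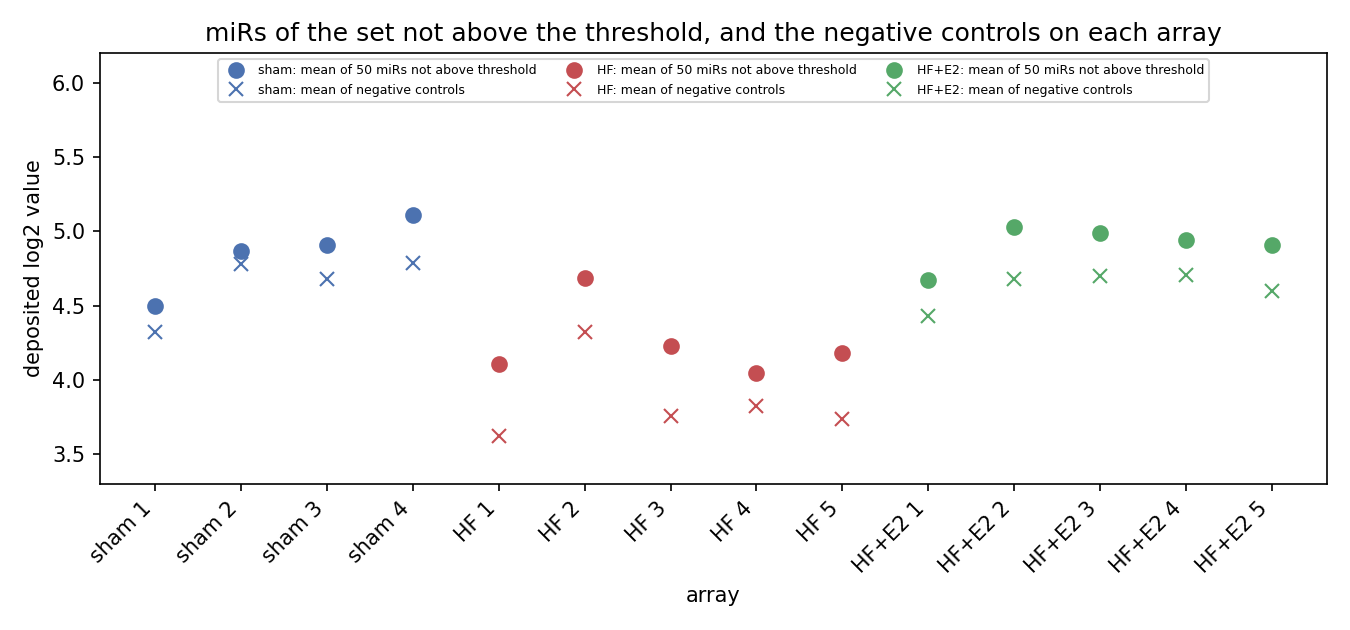
Deposited log2 value (y axis) on each of the 14 arrays (x axis), with dots for the mean of the 50 members that were not above the threshold on every array of any group and crosses for the mean of the 28 negative controls. Dots and crosses were low together on HF 1, HF 3, HF 4 and HF 5, where the negative controls averaged 3.63 to 3.83.

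Differences between groups are therefore given on the deposited scale and relative to the negative controls, that is, after the mean of the array's 28 negative controls was subtracted. Calls required more than 0.5 log2 units in either direction and a Benjamini-Hochberg adjusted p below 0.05 in limma, fitted over all 1037 mouse probes. With these cutoffs, HF differed from sham on the deposited scale for 20 members, all lower in HF, by 0.56 to 1.01 log2 units (limma adjusted p = 0.0115 to 0.0429). Among all mouse probes 22.1% were called lower, and their median log2 fold change was -0.41. Relative to the negative controls the same 20 members differed by -0.22 to 0.23, with 0 called by limma and 0 at an unadjusted p under 0.05, and the methods' t-test called only miR-7a of all members on that scale. All 5 HF arrays were below all 4 sham arrays for 14 members, against 15.8% of mouse probes. The sign was negative for 49 of the 50 members at background, with miR-367* as the exception, and for 17 of the 17 detected members. Among all mouse probes it was negative for 487 of the 513 not above the threshold on every array of any group. It was negative for 335 of the 524 above it on every array of a group, the detected mouse probes. Of the 513, 28.1% were called lower, against 15 of 50 members, and of the 524, 16.2%, against 5 of 17 members.

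The count of 20 depended on single arrays and on the scaling. It was 32 without sham 1, 7 without sham 2, 4 without sham 3 (miR-141, miR-302b, miR-137 and miR-182*) and 6 without sham 4. Of the HF arrays, it was 9 without HF 1, 43 without HF 2, 14 without HF 3, 8 without HF 4 and 17 without HF 5. Over all 1037 mouse probes the count called lower (229) moved likewise, from 75 without sham 3 to 378 without HF 2. Without scaling of the arrays, where the median of all mouse probes was 0.38 higher in HF, 0 members were lower and miR-203 alone was higher. Quantile normalization left only miR-219-5p. All sham arrays carried 1 code in their column headers and HF 1 to 4 another, so that array code and group cannot be told apart in this comparison.

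After subtraction of the negative controls, 3 members were called higher in HF than in sham, miR-7a, miR-216a and miR-367*, while 26.7% of all mouse probes were called higher, with a median of 0.38. This count was 6 without sham 1, 1 without sham 2, sham 4, HF 1 or HF 3, and 0 without sham 3. The log2 fold changes of the single negative controls between HF and sham ranged from -1.25 to -0.28 on the deposited scale. Of the members, 59 were within that range, miR-122* was below it, and miR-292-3p, miR-203, miR-216a, miR-7a, miR-367*, miR-205* and miR-429* were above it.

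HF+E2 differed from HF on the deposited scale for 34 members, all higher in HF+E2, by 0.56 to 1.26 log2 units (limma adjusted p = 0.00531 to 0.0439), at a background of 28.9% of mouse probes called higher and a median of 0.34. Of the 513 mouse probes not above the threshold on every array of any group, 45.4% were called higher (median 0.59), against 28 of 50 members. Of the 524 detected mouse probes it was 12.8%, against 6 of 17 members. Measured against the negative controls these 34 members differed by -0.21 to 0.49, with 0 called and 1 at an unadjusted p under 0.05. Instead, 7 other members were called lower in HF+E2 on that scale, miR-7a, miR-128, miR-203, miR-290-5p, miR-302a, miR-7b* and miR-183*, at a background of 36.6% called lower and a median of -0.43. Of the 524 mouse probes above the threshold on every array of a group, 61.3% were called lower there (median -0.71), against 4 of 17 members. Of the other 513 mouse probes 11.5% were called lower, against 3 of 50 members. The deposited count was 23 without HF 1, 43 without HF 2, 20 without HF 4, 24 without HF+E2 2 and 23 without HF+E2 3, and 26 to 40 without any other array. With the array code as a block limma called 0 members (22 at an unadjusted p under 0.05) and 1 of all 1037 mouse probes, and on the relative scale 3 members (miR-7a, miR-138 and miR-200a) and 16 mouse probes. The only code shared by both groups held HF 5 and HF+E2 1 to 3, so that every value with this block rests on HF 5 as the single HF array. Within that code 53 of the 67 members were higher in HF+E2 on the deposited scale, with a median of 0.66, and the negative controls were 0.87 higher. Against the range of the single negative controls, -0.02 to 1.26, miR-203, miR-183* and miR-7a were below and miR-294* above.

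HF+E2 and sham, whose negative controls did not differ beyond their spread, differed for 0 members on the deposited scale, by limma and by the methods' t-test, with 6 at an unadjusted p under 0.05 in limma, while 2.41% of mouse probes were called in either direction. With the negative controls subtracted, miR-367* alone was called higher in HF+E2, at a background of 1.93%. The single negative controls ranged from -0.83 to 0.38 in this comparison, with miR-183* below and miR-293, miR-205, miR-219-3p, miR-294*, miR-367* and miR-429* above. The 3 comparisons share arrays, so that their counts are not independent.

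**Figure D3:**
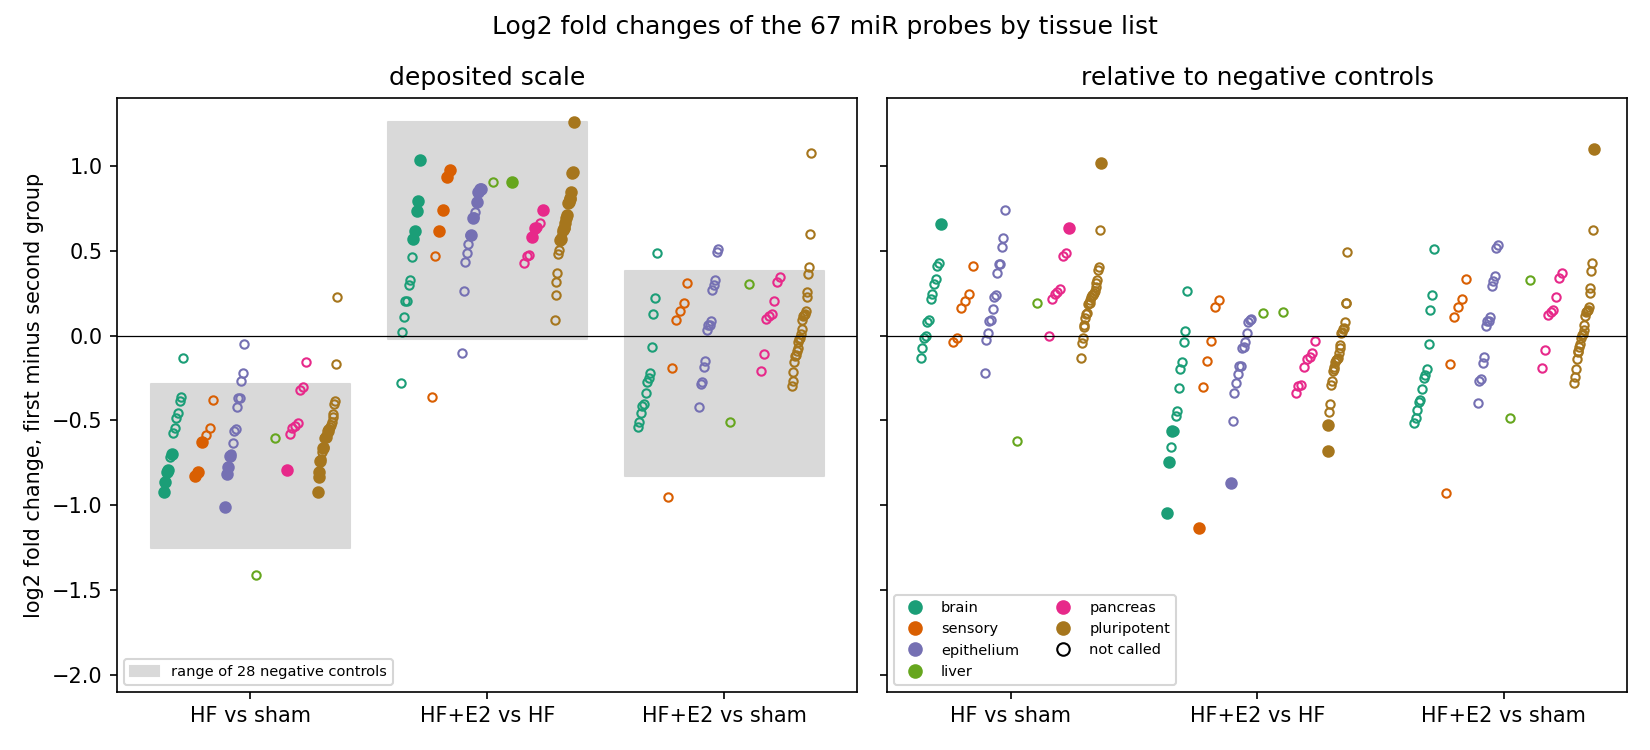
Log2 fold change (y axis) of each of the 67 members in the 3 comparisons (x axis), on the deposited scale and relative to the negative controls, colored by tissue list, with filled dots for called members and gray bands for the range of the 28 single negative controls. On the deposited scale most members lay inside the bands, and the 20 called in HF against sham and 33 of the 34 called in HF+E2 against HF were among them.

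Of the brain members, miR-128, which is abundant in neurons, was the best detected. Its deposited log2 values were 10.88, 11.46, 11.21 and 11.08 in sham 1 to 4, 10.54, 10.96, 10.75, 10.84 and 10.90 in HF 1 to 5 and 10.72, 10.94, 10.67, 10.86 and 10.91 in HF+E2 1 to 5. They overlapped between all groups, and the differences from sham were -0.36 in HF and -0.34 in HF+E2, neither called. Relative to the negative controls its values were 6.56, 6.67, 6.53 and 6.29 in sham 1 to 4, 6.91, 6.64, 6.99, 7.02 and 7.16 in HF 1 to 5 and 6.29, 6.26, 5.97, 6.16 and 6.31 in HF+E2 1 to 5. There the 5 HF+E2 arrays were below the 5 HF arrays. From HF to HF+E2 miR-128 fell by 0.74 (1.68-fold, SE 0.13, limma adjusted p = 0.000722, exact permutation p = 0.00794), whereas it was 0.02 higher on the deposited scale. The call was lost with the array code as a block. The median of the 524 detected mouse probes was -0.71 in the same comparison relative to the negative controls, and 61.3% of them were called lower.

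miR-7a, a miR of neurons and pancreatic islets, was the only member whose call in HF+E2 against HF held in all 25 alternative settings of the relative scale. Its deposited values were 7.14, 7.60, 7.04 and 7.23 in sham 1 to 4, 7.12, 7.54, 6.70, 6.85 and 7.37 in HF 1 to 5 and 6.48, 7.17, 6.54, 7.0 and 7.0 in HF+E2 1 to 5, and all groups overlapped. After subtraction of the negative controls they were 2.81, 2.82, 2.36 and 2.44 in sham 1 to 4, 3.50, 3.22, 2.95, 3.03 and 3.64 in HF 1 to 5 and 2.05, 2.49, 1.84, 2.29 and 2.40 in HF+E2 1 to 5. Every HF array was then above every sham and every HF+E2 array. miR-7a was 1.58-fold higher in HF than in sham on this scale (log2 0.66, SE 0.19, limma adjusted p = 0.0255) and fell by 1.05 log2 units from HF to HF+E2 (2.07-fold, SE 0.18, adjusted p = 0.000479). The former call was lost without sham 3, sham 4, HF 1 or HF 5. On the deposited scale the same differences were -0.13 and -0.28, without a call. The medians of the 524 detected mouse probes relative to the negative controls were 0.66 and -0.71 in these 2 comparisons.

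miR-219-5p, which promotes the maturation of oligodendrocytes, had deposited values of 7.66, 7.65, 7.84 and 7.57 in sham 1 to 4, 7.15, 6.82, 7.22, 6.65 and 7.04 in HF 1 to 5 and 6.88, 7.45, 7.31, 7.48 and 7.25 in HF+E2 1 to 5. All 5 HF arrays and all 5 HF+E2 arrays were below the 4 sham arrays. miR-219-5p fell by 0.70 log2 units from sham to HF (1.62-fold, SE 0.17, limma adjusted p = 0.0159, exact permutation p = 0.00794), whereas it was 0.09 higher before scaling and 0.09 higher relative to the negative controls. The call was lost without scaling, with scaling to the 75th percentile and without sham 3. Between HF+E2 and sham the difference was -0.40 (adjusted p = 0.295). miR-219-3p averaged 4.48 ± 0.63 (sham), 3.93 ± 0.48 (HF) and 4.96 ± 0.18 (HF+E2), with a called difference of 1.03 between HF+E2 and HF. This other arm was above the threshold on 0 arrays.

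miR-138, which restrains dendritic spine growth in rat neurons, had values of 7.66, 8.62, 8.28 and 9.25 in sham 1 to 4, 7.67, 7.93, 8.03, 7.78 and 8.94 in HF 1 to 5 and 7.97, 8.20, 8.16, 8.18 and 8.38 in HF+E2 1 to 5. HF 5 and sham 4 were its highest arrays, and none of its 3 comparisons was called on either scale. The relative difference between HF+E2 and HF, -0.66 (adjusted p = 0.0545), was called in 11 of 25 alternative settings. One of these was the array code as a block, with -1.69 (adjusted p = 0.049), a value that rests on HF 5, at 8.94 against 7.67 to 8.03 on the other HF arrays. miR-9*, the partner arm of the neural miR-9, averaged 5.89 ± 0.24 (sham), 5.18 ± 0.74 (HF) and 5.39 ± 0.62 (HF+E2), and was above the threshold on 4 of 4 sham, 3 of 5 HF and 2 of 5 HF+E2 arrays. It was not called either.

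The remaining brain members were at or near background, and their differences are differences of log2 values there, given without a fold. miR-7b averaged 5.70 ± 0.12 (sham), 4.89 ± 0.48 (HF) and 5.63 ± 0.18 (HF+E2), with called differences of -0.80 between HF and sham and 0.73 between HF+E2 and HF. It differs from miR-7a by the single base given above. miR-9 averaged 5.79 ± 0.27 (sham), 4.87 ± 0.51 (HF) and 5.33 ± 0.32 (HF+E2), with a called difference of -0.92 between HF and sham. miR-124 averaged 5.76 ± 0.55 (sham), 4.90 ± 0.42 (HF) and 5.22 ± 0.22 (HF+E2), with a called difference of -0.86 between HF and sham. miR-124 is the most abundant miR of neurons, and it was above the threshold on 1 array of each group. miR-137 averaged 5.60 ± 0.14 (sham), 4.81 ± 0.29 (HF) and 5.38 ± 0.13 (HF+E2), with called differences of -0.79 between HF and sham and 0.57 between HF+E2 and HF (-0.05 before scaling). miR-137* averaged 4.65 ± 0.36 (sham), 4.07 ± 0.61 (HF) and 4.87 ± 0.18 (HF+E2), with a called difference of 0.79 between HF+E2 and HF. miR-124* averaged 4.57 ± 0.39 (sham), 4.08 ± 0.19 (HF) and 4.70 ± 0.22 (HF+E2), with a called difference of 0.61 between HF+E2 and HF (-0.0054 before scaling). miR-137 acts at synapses, and its 2 arms together were above the threshold on 1 array. miR-7b* averaged 5.37 ± 0.16 (sham), 4.91 ± 0.34 (HF) and 5.12 ± 0.30 (HF+E2). Measured against the negative controls miR-7b* averaged 0.72 ± 0.19 (sham), 1.06 ± 0.32 (HF) and 0.49 ± 0.33 (HF+E2), and fell by 0.56 from HF to HF+E2 on that scale (adjusted p = 0.0268), a call lost without HF 1, HF 3, HF+E2 2 or HF+E2 4.

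Of the epithelial members only miR-203, which limits the renewal of skin keratinocytes, was well detected. Its values were 8.58, 9.17, 9.48 and 9.52 in sham 1 to 4, 8.78, 8.81, 9.42, 9.26 and 9.43 in HF 1 to 5 and 8.56, 9.41, 9.48, 8.81 and 8.93 in HF+E2 1 to 5. The groups overlapped fully on this scale. With the negative controls subtracted, miR-203 averaged 4.54 ± 0.26 (sham), 5.28 ± 0.50 (HF) and 4.42 ± 0.32 (HF+E2), and fell by 0.87 log2 units from HF to HF+E2 (1.83-fold, SE 0.23, limma adjusted p = 0.00781), against -0.10 on the deposited scale. This call was lost with the array code as a block. Between HF and sham the relative difference of 0.74 missed the threshold (adjusted p = 0.0501), and HF 2, at 4.48, was the HF array within the range of sham. The deposited difference there was -0.05, and without scaling it was 0.74 and called. Relative to the negative controls, the median of the 524 detected mouse probes was 0.66 between HF and sham and -0.71 between HF+E2 and HF.

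miR-141 and miR-200a repress ZEB1 and ZEB2, the transcription factors that turn off epithelial genes. miR-141 was above the threshold on 4 of 4 sham, 2 of 5 HF and 3 of 5 HF+E2 arrays, with values of 5.59, 6.27, 6.15 and 6.22 in sham 1 to 4, 5.27, 5.03, 4.90, 5.08 and 4.94 in HF 1 to 5 and 5.27, 5.35, 5.59, 6.13 and 5.84 in HF+E2 1 to 5. All HF arrays were below all sham arrays, and the difference was the widest among the 20 members called lower in HF. miR-141 fell by 1.01 log2 units (SE 0.18, limma adjusted p = 0.0115, exact permutation p = 0.00794), whereas relative to the negative controls the difference was -0.22 (adjusted p = 0.409). No fold is given, because only 2 of 5 HF arrays were above the threshold. The call was lost without scaling and with quantile normalization. From HF to HF+E2 it rose by 0.59 (adjusted p = 0.0298), with -0.03 before scaling and -0.18 relative to the negative controls. The rise was lost when any of HF 3 to 5 or HF+E2 3 to 5 was left out. miR-200a, 2 bases different from miR-141, averaged 5.94 ± 0.39 (sham), 5.38 ± 0.71 (HF) and 5.65 ± 0.34 (HF+E2), with HF 5 at 6.53, and none of its comparisons was called. The difference between HF and sham of -0.55 was called in 3 of 22 alternative settings, among them without HF 5 (-0.84, adjusted p = 0.0416). With the array code as a block the relative difference between HF+E2 and HF was -1.65 (adjusted p = 0.049), a value that rests on HF 5.

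The other members of the miR-200 family were not above the threshold on every array of any group. miR-200c averaged 5.80 ± 0.32 (sham), 5.09 ± 0.30 (HF) and 5.53 ± 0.29 (HF+E2), with a called difference of -0.71 between HF and sham (0.08 before scaling). miR-200c* averaged 5.12 ± 0.21 (sham), 4.31 ± 0.45 (HF) and 5.15 ± 0.26 (HF+E2), with called differences of -0.82 between HF and sham and 0.85 between HF+E2 and HF. miR-429 averaged 5.80 ± 0.18 (sham), 5.02 ± 0.52 (HF) and 5.61 ± 0.35 (HF+E2), with a called difference of -0.77 between HF and sham (0.01 before scaling). miR-200c, miR-429 and miR-200b share the seed AAUACUG, and miR-200c and miR-429 were above the threshold on 6 and 7 arrays. miR-200a* averaged 4.33 ± 0.44 (sham), 3.76 ± 0.32 (HF) and 4.63 ± 0.21 (HF+E2), with a called difference of 0.86 between HF+E2 and HF. miR-141* averaged 5.29 ± 0.15 (sham), 4.66 ± 0.50 (HF) and 5.36 ± 0.17 (HF+E2), with a called difference of 0.69 between HF+E2 and HF. miR-203* averaged 4.62 ± 0.41 (sham), 3.92 ± 0.51 (HF) and 4.70 ± 0.31 (HF+E2), with a called difference of 0.79 between HF+E2 and HF. These 3 arms were above the threshold on 0 arrays. miR-205 averaged 5.53 ± 0.48 (sham), 5.16 ± 0.38 (HF) and 6.02 ± 0.36 (HF+E2), with a called difference of 0.86 between HF+E2 and HF. miR-205 belongs to stratified epithelia, where it also targets ZEB1 and ZEB2, and it was above the threshold on 1 sham, 1 HF and 4 HF+E2 arrays. The partner arms were not called, and miR-205* averaged 3.76 ± 0.25 (sham), 3.49 ± 0.51 (HF) and 4.03 ± 0.47 (HF+E2). The partner of miR-429 was likewise at background, and miR-429* averaged 3.62 ± 0.87 (sham), 3.40 ± 0.19 (HF) and 4.13 ± 0.55 (HF+E2).

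Of the pancreatic members, miR-216a, which is abundant in acinar cells, had values of 5.75, 5.73, 5.49 and 6.26 in sham 1 to 4, 5.20, 6.50, 5.85, 5.40 and 5.31 in HF 1 to 5 and 6.06, 6.21, 6.35, 6.22 and 5.78 in HF+E2 1 to 5. It was above the threshold on 13 of 14 arrays, sham 3 being the exception. All groups overlapped on the deposited scale, with a difference of -0.16 between HF and sham. Relative to the negative controls miR-216a averaged 1.16 ± 0.34 (sham), 1.80 ± 0.31 (HF) and 1.50 ± 0.19 (HF+E2), and all HF arrays were above all sham arrays (1.55-fold, log2 0.63, SE 0.21, limma adjusted p = 0.0467). The call was made in 9 of 20 alternative settings, and it was lost without sham 2, sham 3, HF 1, HF 2, HF 3 or HF 4. The median of the 524 detected mouse probes was 0.66 between HF and sham relative to the negative controls. miR-375, which controls insulin secretion in islets, was above the threshold on 1 array, whereas its other arm miR-375* averaged 5.66 ± 0.25 (sham), 5.36 ± 0.32 (HF) and 5.79 ± 0.24 (HF+E2) and was above it on 11 arrays. miR-375 averaged 5.39 ± 0.11 (sham), 4.60 ± 0.39 (HF) and 5.18 ± 0.28 (HF+E2), with called differences of -0.79 between HF and sham and 0.58 between HF+E2 and HF (-0.04 before scaling). miR-216b averaged 4.83 ± 0.38 (sham), 4.29 ± 0.19 (HF) and 5.03 ± 0.36 (HF+E2), with a called difference of 0.74 between HF+E2 and HF. miR-216a* averaged 4.62 ± 0.28 (sham), 4.10 ± 0.41 (HF) and 4.73 ± 0.41 (HF+E2), with a called difference of 0.63 between HF+E2 and HF. miR-216b differs from miR-216a at 4 of 22 bases, and neither it nor miR-216a* was above the threshold on any array.

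None of the 6 sensory members was above the threshold on any of the 14 arrays. The cluster is expressed in hair cells and photoreceptors, and seed mutations of miR-96 cause deafness in mice. miR-182 averaged 5.10 ± 0.29 (sham), 4.27 ± 0.27 (HF) and 5.24 ± 0.28 (HF+E2), with called differences of -0.83 between HF and sham and 0.98 between HF+E2 and HF. miR-182* averaged 4.51 ± 0.25 (sham), 3.70 ± 0.13 (HF) and 4.32 ± 0.41 (HF+E2), with called differences of -0.81 between HF and sham and 0.62 between HF+E2 and HF (-0.0025 before scaling). miR-96 averaged 4.92 ± 0.37 (sham), 4.30 ± 0.25 (HF) and 5.23 ± 0.22 (HF+E2), with called differences of -0.63 between HF and sham (0.16 before scaling) and 0.94 between HF+E2 and HF. All HF arrays were below all sham arrays for these 3 probes. miR-183 averaged 4.85 ± 0.18 (sham), 4.30 ± 0.45 (HF) and 5.04 ± 0.24 (HF+E2), with a called difference of 0.74 between HF+E2 and HF. miR-183* averaged 4.10 ± 0.31 (sham), 3.52 ± 0.62 (HF) and 3.15 ± 0.68 (HF+E2). miR-183* had the only negative difference of the cluster between HF+E2 and HF. After subtraction of the negative controls it averaged -0.54 ± 0.14 (sham), -0.34 ± 0.43 (HF) and -1.47 ± 0.58 (HF+E2), and fell by 1.13 from HF to HF+E2 (adjusted p = 0.00306), whereas the difference on the deposited scale was -0.36. With negative controls subtracted before the log2 the deposited difference was 0.62. In that setting a probe at or below the negative controls takes the same floor value plus the authors' constant of its array. These constants averaged -0.45 (HF) and 0.17 (HF+E2), so that the value says little about miR-183*. The call was lost with the array code as a block, and the group means were below the negative controls in all 3 groups. The partner arm of miR-96, miR-96*, averaged 4.03 ± 0.40 (sham), 3.65 ± 0.58 (HF) and 4.12 ± 0.45 (HF+E2) and was not called.

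The liver list held both arms of miR-122, the dominant miR of hepatocytes. miR-122 averaged 5.11 ± 0.43 (sham), 4.51 ± 0.33 (HF) and 5.42 ± 0.14 (HF+E2), with a called difference of 0.91 between HF+E2 and HF. It was above the threshold on 1 array, of the HF+E2 group. miR-122* averaged 3.37 ± 1.02 (sham), 1.96 ± 1.47 (HF) and 2.86 ± 0.83 (HF+E2), below the mean of the negative controls, and its differences were not called.

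The stem cell members were the largest list, and those above the threshold were at most 1.56 log2 units above it. miR-302c had values of 6.44, 6.68, 6.80 and 7.01 in sham 1 to 4, 6.16, 6.56, 6.15, 5.93 and 6.03 in HF 1 to 5 and 6.52, 6.68, 6.76, 6.98 and 6.75 in HF+E2 1 to 5. HF 2 was the only HF array within the range of sham. miR-302c fell by 0.56 from sham to HF (1.48-fold, SE 0.18, limma adjusted p = 0.04) and rose by 0.57 from HF to HF+E2 (adjusted p = 0.0187), with 0.22 and -0.05 before scaling and 0.23 and -0.20 relative to the negative controls. The fall was lost in 13 of 23 alternative settings, among them without sham 2, sham 3, sham 4, HF 1, HF 3, HF 4 or HF 5, and the rise was lost without HF 4.

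miR-291a-3p, the relative of miR-294 with the seed AAGUGCU, had values of 6.30, 6.73, 6.69 and 6.64 in sham 1 to 4, 5.84, 6.50, 6.34, 5.86 and 5.66 in HF 1 to 5 and 6.58, 6.73, 6.62, 6.90 and 6.70 in HF+E2 1 to 5. All 5 HF+E2 arrays were above all 5 HF arrays. It rose by 0.67 log2 units (1.59-fold, SE 0.17, limma adjusted p = 0.0154), against -0.10 relative to the negative controls, and its difference between HF and sham of -0.55 was not called (adjusted p = 0.064). Of the others with AAGUGC, miR-294 averaged 6.40 ± 0.24 (sham), 5.80 ± 0.36 (HF) and 6.36 ± 0.08 (HF+E2), and rose by 0.56 from HF to HF+E2 (adjusted p = 0.0273), with -0.06 before scaling. That call was lost without HF 1, HF 4, HF+E2 2 or HF+E2 3. miR-295 averaged 5.95 ± 0.41 (sham), 5.21 ± 0.33 (HF) and 5.83 ± 0.23 (HF+E2), and was above the threshold on 4 of 4 sham, 2 of 5 HF and 4 of 5 HF+E2 arrays. It fell by 0.74 from sham to HF (adjusted p = 0.0376; 0.04 before scaling) and rose by 0.62 from HF to HF+E2 (adjusted p = 0.0304). Measured against the negative controls the differences were 0.05 and -0.14. The fall was lost without sham 2, sham 3, sham 4, HF 1, HF 3, HF 4 or HF 5, and the rise when HF 1, HF 4, HF 5 or any of HF+E2 2 to 5 was left out. miR-291b-3p averaged 6.38 ± 0.14 (sham), 5.83 ± 0.48 (HF) and 6.30 ± 0.30 (HF+E2) and was not called.

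The other detected arms of the miR-290 cluster followed no common pattern of calls. miR-292-5p averaged 6.29 ± 0.29 (sham), 5.46 ± 0.31 (HF) and 6.17 ± 0.26 (HF+E2), and was above the threshold on 13 arrays, all but HF 1. It fell by 0.83 in HF (adjusted p = 0.0194) and rose by 0.71 in HF+E2 against HF (adjusted p = 0.0173), with -0.04 and -0.06 relative to the negative controls. The fall was lost without sham 2, sham 3 or sham 4. miR-292-3p averaged 6.16 ± 0.30 (sham), 5.99 ± 0.46 (HF) and 6.31 ± 0.21 (HF+E2) and was not called on either scale, and miR-290-5p averaged 6.36 ± 0.27 (sham), 5.85 ± 0.31 (HF) and 6.09 ± 0.39 (HF+E2). With the negative controls subtracted, miR-290-5p fell by 0.53 from HF to HF+E2 (adjusted p = 0.0473), a call made in 10 of 25 alternative settings and, of the arrays left out in turn, kept without sham 1, sham 3, HF 2, HF 4 or HF+E2 5.

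The remaining stem cell members were at or near background. miR-302b averaged 5.03 ± 0.21 (sham), 4.11 ± 0.27 (HF) and 5.07 ± 0.20 (HF+E2), with called differences of -0.92 between HF and sham and 0.96 between HF+E2 and HF. miR-290-3p averaged 4.74 ± 0.30 (sham), 4.08 ± 0.35 (HF) and 4.58 ± 0.34 (HF+E2), with a called difference of -0.66 between HF and sham (0.12 before scaling). miR-291b-5p averaged 4.95 ± 0.28 (sham), 4.35 ± 0.21 (HF) and 5.31 ± 0.25 (HF+E2), with called differences of -0.60 between HF and sham (0.19 before scaling) and 0.96 between HF+E2 and HF. All HF arrays were below all sham arrays for these 3 probes, and none was above the threshold on any array. miR-302a* averaged 5.20 ± 0.36 (sham), 4.39 ± 0.32 (HF) and 5.18 ± 0.20 (HF+E2), with called differences of -0.80 between HF and sham and 0.79 between HF+E2 and HF. miR-302c* averaged 4.94 ± 0.20 (sham), 4.42 ± 0.43 (HF) and 5.20 ± 0.28 (HF+E2), with a called difference of 0.78 between HF+E2 and HF. miR-367 averaged 4.51 ± 0.35 (sham), 4.04 ± 0.26 (HF) and 4.73 ± 0.32 (HF+E2), with a called difference of 0.69 between HF+E2 and HF. Relative to the negative controls the differences of miR-302a* were -0.01 and 0.02. miR-293 averaged 5.40 ± 0.10 (sham), 4.99 ± 0.35 (HF) and 5.80 ± 0.39 (HF+E2), with a called difference of 0.81 between HF+E2 and HF. miR-293* averaged 4.75 ± 0.25 (sham), 4.21 ± 0.28 (HF) and 4.84 ± 0.32 (HF+E2), with a called difference of 0.63 between HF+E2 and HF. miR-294* averaged 4.17 ± 0.80 (sham), 3.51 ± 0.33 (HF) and 4.77 ± 0.27 (HF+E2), with a called difference of 1.26 between HF+E2 and HF. miR-294* had the highest difference of all members between HF+E2 and HF, also relative to the negative controls (0.49, adjusted p = 0.0817). miR-295* averaged 4.57 ± 0.44 (sham), 3.88 ± 0.49 (HF) and 4.69 ± 0.24 (HF+E2), with a called difference of 0.81 between HF+E2 and HF. miR-302a averaged 4.94 ± 0.40 (sham), 4.56 ± 0.44 (HF) and 4.64 ± 0.38 (HF+E2). After subtraction of the negative controls miR-302a, whose value was not called on the deposited scale, fell by 0.68 from HF to HF+E2 (adjusted p = 0.0106). Among those without a call, miR-302b* averaged 5.72 ± 0.33 (sham), 5.12 ± 0.48 (HF) and 5.70 ± 0.20 (HF+E2). miR-291a-5p averaged 5.62 ± 0.41 (sham), 5.14 ± 0.40 (HF) and 5.75 ± 0.32 (HF+E2). The remaining members, miR-200b, miR-200b*, miR-216b*, miR-217, miR-217*, miR-302d and miR-302d*, were called in none of the 6 fits. Their deposited differences were -0.73 to -0.32 between HF and sham and 0.37 to 0.70 between HF+E2 and HF, and only miR-200b was above the threshold, on 1 array.

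miR-367*, the 5′ arm of the last hairpin of the miR-302 cluster, was the only member with a positive deposited difference between HF and sham (0.23, not called). Its deposited values were 3.37, 2.93, 2.11 and 3.13 in sham 1 to 4, 2.50, 3.99, 3.52, 2.74 and 2.81 in HF 1 to 5 and 3.49, 4.17, 3.82, 4.15 and 4.16 in HF+E2 1 to 5. They were below the mean of the negative controls on all 14 arrays, and all HF+E2 arrays were above all sham arrays. It rose by 0.85 from HF to HF+E2 on the deposited scale, a call lost when HF 1, HF 4, HF 5 or any of HF+E2 2 to 5 was left out. Measured against the negative controls it averaged -1.76 ± 0.67 (sham), -0.74 ± 0.42 (HF) and -0.66 ± 0.23 (HF+E2), and was called higher than sham in HF (1.02, adjusted p = 0.0305) and in HF+E2 (1.10, adjusted p = 0.0463). The former call was made in 10 of 19 alternative settings and lost without sham 2, sham 3, sham 4, HF 2 or HF 3. The latter was made in 6 of 24, and of the arrays left out in turn it was kept only without sham 1, HF 2 or HF 3. With negative controls subtracted before the log2, the difference between HF and sham was -0.78. That setting gives a probe below the negative controls the same floor value plus the authors' constant of its array. The constants averaged 0.34 (sham) and -0.45 (HF), so that the value says nothing about miR-367*.

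**Figure D4:**
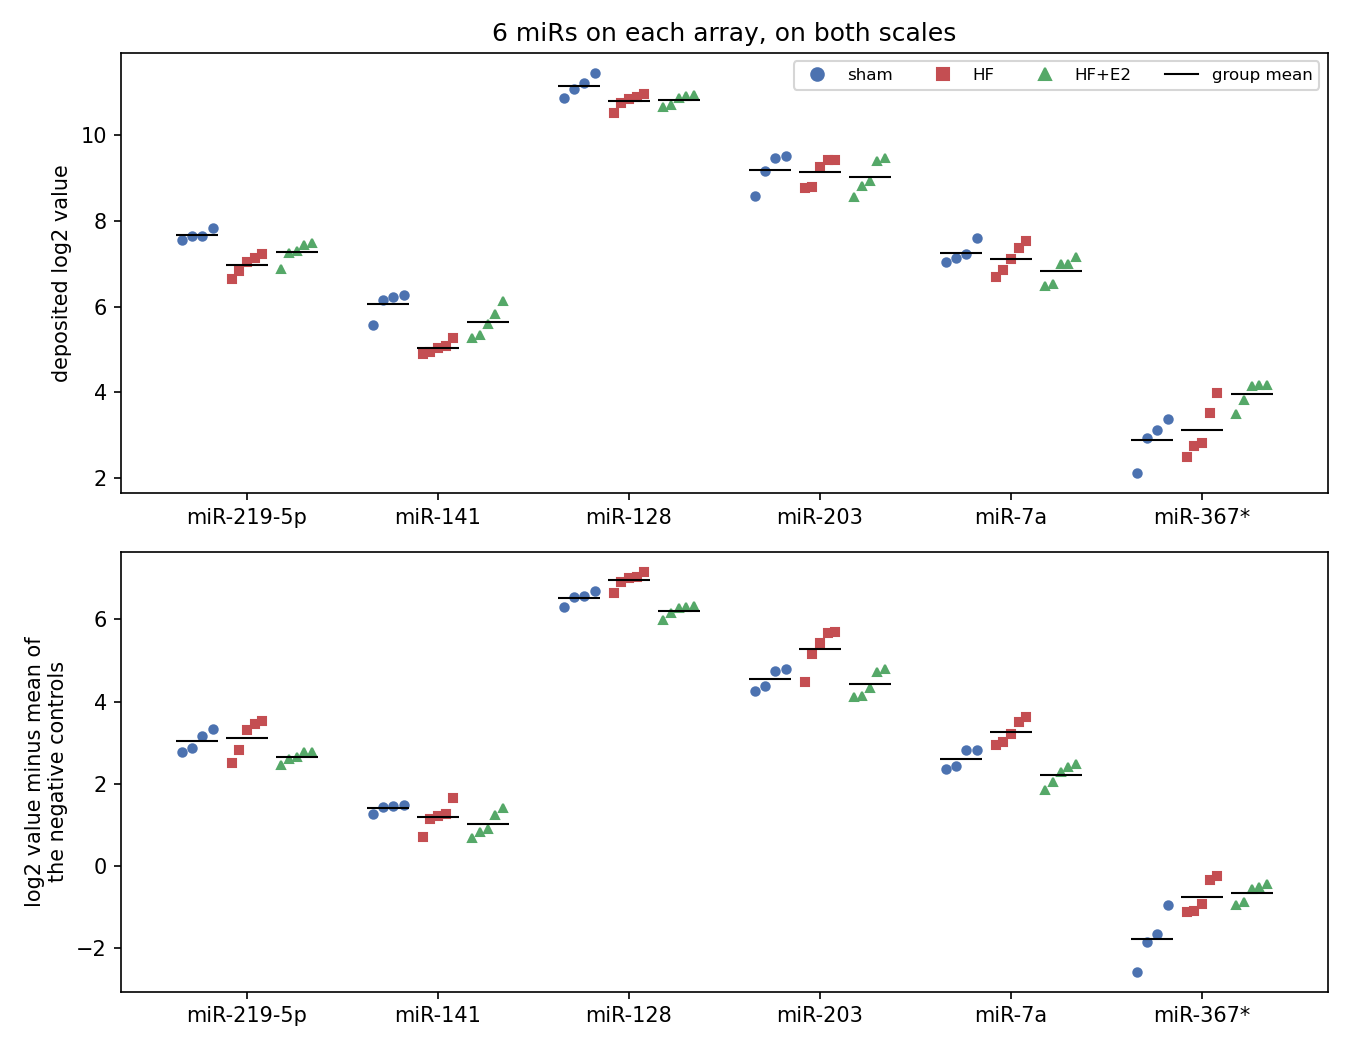
Deposited log2 value (top, y axis) and log2 value minus the mean of the array's negative controls (bottom, y axis) of miR-219-5p, miR-141, miR-128, miR-203, miR-7a and miR-367* (x axis), with each array as a point and group means as lines. In the top panel HF lay below sham for miR-219-5p and miR-141 without overlap, and in the bottom panel miR-7a and miR-128 lay lower in HF+E2 than in HF without overlap.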

How the data were processed

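MiR levels were measured in the LV of 14 mice, with groups taken from the sample labels. The RNA was labelled with Oyster-550 and hybridized to arrays of miRBase 16.0 probes, 3 spots per probe. The deposited intensities are background-subtracted signals of the spots, as the authors' scanner software gave them, without scaling between arrays. The deposited log2 values were made by the authors: on all 14 arrays they equaled the mean of log2 over the 3 spots, floored at 1, plus 1 constant per array, which the table notes describe as a normalization factor from a 20% trimmed mean. The notes set the detection threshold from 5 times the SD and the trimmed mean of the negative controls. The authors' p-values, false discovery rates, fold changes and group means were not used, and 0 value columns were left unassigned.

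The log2 values of all 1037 mouse probes were compared with limma 3.58.1 (lmFit and eBayes, Benjamini-Hochberg adjustment) in R 4.3.3, with HF and sham fitted alone and the other comparisons in 1 fit of 14 arrays. The methods state the cutoffs but no test for the arrays. The 2-tailed Student's test that they name for any data of 2 groups was run as an alternative and is called the methods' t-test. The fits were tested on simulated data. For HF against sham, 23 of 50 probes given a difference of 0.6 log2 units were called. At 0.8 log2 units 35 of 50 were called, and at 2 log2 units 50 of 50. Of 837 probes given no difference, 5 were called. Recovery under a shift shared by all probes of an array was not tested. Single members were also compared with two-sided exact permutation tests, which with 4 to 5 mice a group cannot go below 0.00794. Named were all members above the threshold on every array of a group, all members called in any fit, their partner arms, and the highest 3 of the others. The members, lists and tests were chosen with earlier results of these data known. Tables and plots were made in Python 3.11.15 with matplotlib 3.10.9. Alternatives were other scalings, filters, samples, tests and blocks, and each array left out in turn. Values within array codes, the code as a random block, the arrays marked 650 and probes of other species were added after seeing the data.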

Additional observations from a re-analysis of the deposited data

Results flagged for a closer look

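In 9 of 168 groups of 4 or 5 arrays, 1 array stood apart from the others of its group by Dixon's criterion, which chance alone meets in about 1 in 20 groups. Among members above the threshold, miR-138 was 8.94 on HF 5 against 7.67 to 8.03 on the other HF arrays, and miR-295 was 5.44 on HF+E2 1 against 5.86 to 6.02. The others were at or near background. miR-205 was 6.65 on HF+E2 5 against 5.77 to 5.96, miR-291b-5p was 3.99 on HF 4 against 4.37 to 4.52, and miR-216b was 5.39 on sham 4 against 4.60 to 4.69. miR-137* was 5.13 on HF 2 against 3.65 to 4.00, and miR-291a-5p was 5.84 on HF 2 against 4.86 to 5.10. miR-367 was 4.47 on HF 3 against 3.85 to 4.02, and miR-183* was 3.64 on sham 1 against 4.23 to 4.33.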

How the results depend on the processing

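Of 1624 values that called members took under the alternatives, 1187 kept direction and call, 422 kept the direction but lost the call and 15 changed sign. Of 6486 values of uncalled members, 329 changed sign and 201 gained a call in the same direction. Without scaling alone, the difference between HF and sham was positive for 54 of the 67 members. Where no cause is named, it was not tested. On the deposited scale, the count of members lower in HF than in sham (20) was 6 with only the probes above the threshold, 5 with scaling to the 75th percentile, 1 with quantile normalization, 49 with negative controls subtracted before log2, 52 with array weights, 10 by the methods' t-test, 39 with the array code as a random block and 43 without the arrays marked 650. Without scaling it was 1, in the other direction. Leaving out 1 array gave 4 to 43. With negative controls subtracted before log2, probes at or below them take the same floor value plus the authors' constant of the array. These constants averaged 0.34 (sham) and -0.45 (HF), so that probes near background shift with them. How far the count of 49 rests on this was not tested. Relative to the negative controls all calls between HF and sham were higher in HF. Their count (3) was 5 with all 14 arrays in the fit and 6 with array weights or the random block. It was 1 by the methods' t-test, and 0 to 6 with 1 array left out. The deposited count of HF+E2 against HF (34) was 6 with only the probes above the threshold, 19 with the 75th percentile, 18 by the methods' t-test, 0 with quantile normalization or the array code as a block and, without scaling, 1 in the other direction (miR-7a). With 1 array left out it was 20 to 43. Relative to the negative controls all calls between HF+E2 and HF were lower in HF+E2. Their count (7) was 5 to 9 with 1 array left out. It also moved with the array code as a block, which rests on HF 5. For HF+E2 against sham, the deposited count (0) was 1 with the 75th percentile, the random block or without the arrays marked 650, 2 with array weights, and 0 to 1 with 1 array left out. The relative count (1) was 2 with array weights or the random block, and 0 with only the probes above the threshold, all probes, the 2 groups alone, the median of the negative controls, a variance trend, the methods' t-test, a replicate block or without the arrays marked 650, and 0 to 1 with 1 array left out. Members above the threshold on every array (11) numbered 6 above the mean plus 2 SD of the negative controls, 4 at 1 log2 unit above the threshold and 11 to 12 with 1 array left out. Against the 5th to 95th percentile of the single negative controls, 18 members were outside in HF against sham and 11 in HF+E2 against HF. No array code held both sham arrays and arrays of another group, so the random block cannot separate code from group. On the deposited scale its estimated correlation was -0.12 for HF against sham and -0.08 for HF+E2 against sham.

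Without scaling, the differences between HF and sham were 0.0442 for miR-295, 0.22 for miR-302c, 0.74 for miR-203, 0.0855 for miR-219-5p, 0.19 for miR-291b-5p, 0.0102 for miR-429, 0.0773 for miR-200c, 0.16 for miR-96 and 0.12 for miR-290-3p. Those between HF+E2 and HF were -0.0569 for miR-294, -0.0473 for miR-302c, -0.0272 for miR-141, -0.0366 for miR-375, -0.0054 for miR-124*, -0.0477 for miR-137 and -0.0025 for miR-182*. With negative controls subtracted before log2, miR-367* changed to -0.78 between HF and sham and miR-183* to 0.62 between HF+E2 and HF. Both values follow the authors' array constants, since probes below the negative controls take the same floor value before the constants are added. The median of all mouse probes between HF and sham was -0.41 as deposited, 0.38 without scaling, -0.23 with the 75th percentile and -0.03 with quantile normalization.

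The labels number the mice within groups but do not pair them. Over 13 same-numbered pairs the correlation of deviations from the group means was -0.16 to 0.32 (median 0.05), and 3 of 14 arrays correlated best with their own number. With a replicate block the counts of HF against sham, HF+E2 against HF and HF+E2 against sham were 18, 40 and 0 members on the deposited scale and 3, 8 and 0 relative to the negative controls. The header numbers 600 and 650 are not explained in the sources used here, and signal over background limited what could be measured for the 50 members near the negative controls.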

Other observations

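The array also held 42 probes designed to the same miR names in human, rat or rhesus. Of these, 1 was above the threshold on all 14 arrays, rno-miR-375*, by 2.13 to 2.80 log2 units, and 35 were above it on none. rno-miR-200b was above it on 13 arrays and hsa-miR-367* on 10. In contrast with hsa-miR-367*, the mouse miR-367* probe was above the threshold on 0 arrays. Of the rat probes to the miR-290 cluster, rno-miR-290 was above it on 5 arrays. The others, rno-miR-291b, rno-miR-293, rno-miR-293*, rno-miR-294, rno-miR-295 and rno-miR-295*, were above it on 0 arrays. The mouse probes of miR-294 and miR-291b-3p were above it on all 14.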
